A study of Homo sapiens with 6 samples.

Results

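HEMGN and FAM117A are 2 of the 62754 gene rows measured in HUDEP-2 cells, an immortalised human line of erythroid progenitors. Both were chosen from these data: they were picked by a steady rise at high TPM with an shRNA against MEN1, so that size, level and spread between replicates all entered the choice. Their levels and fold changes in that contrast are therefore given as a description, with no test. The rule sets no threshold, so there are no members just inside or outside one. Each name has 1 row in every table.

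Poly(A) RNA was sequenced from 3 libraries labelled as biological replicates of cells carrying the lentiviral MEN1 shRNA (MEN1sh2 in the labels, genotype given as MEN1 knockdown) and 3 carrying a non-targeting shRNA (Controlsh, genotype given as WT). Both groups grew in StemSpan SFEM with 3 units/ml erythropoietin, 50 ng/ml stem cell factor, 1e-06 M dexamethasone and 1 µg/ml doxycycline. Both were selected with puromycin at 2 µg/ml for 48 h from 24 h after infection, and were profiled 72 h after transduction. A single MEN1 hairpin in a single line was used, so that effects of losing MEN1 and other effects of that hairpin cannot be told apart. The labels do not say whether the replicates were separate transductions, so p-values measure the spread between these libraries.

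HEMGN encodes hemogen, a nuclear protein of blood-forming tissue that has been described as a partner of the erythroid transcription factor GATA1 and of the acetyltransferase EP300. It lies downstream of HOXB4 in earlier work, and its protein has been reported to bind nucleophosmin, the product of NPM1. FAM117A is far less studied. An earlier name for it was C/EBP-induced protein, and its relatives by sequence are FAM117B and GLCCI1, the second named for its induction by glucocorticoid.

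HEMGN (ENSG00000136929) spans bases 97926791 to 97944856 of chromosome 9 on the minus strand. FAM117A (ENSG00000121104) spans bases 49710332 to 49789180 of chromosome 17, also on the minus strand. Coordinates are those of the deposited tables, on hg38, and both spans are identical to those in GENCODE v29. That annotation gives HEMGN 2 transcripts of 2192 and 2305 bases, both protein coding, which start at different first exons. It gives FAM117A 12 transcripts of 480 to 2365 bases, 4 of them protein coding, with starts spread from within the gene to a far upstream region beside KAT7.

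The DNA before the upstream RefSeq start of each gene (of 2 in the table) is shown. Both genes were higher in the same libraries, while the base composition and the copies of CCAAT in these windows differ. Each window holds 1 match with AGATAA or TGATAA, and that of FAM117A lies in an exon outside the run shown. Sequences are from RefSeq (GRCh38.p14), read 5′ to 3′ along the gene, and end where the next exon annotated in GENCODE v29 begins. The HEMGN run is chr9:97944857-97945102, minus strand, with the reverse complement of TGATAA in capitals. The FAM117A run is chr17:49764168-49764381, minus strand, with CCAAT or its reverse complement in capitals.
HEMGN: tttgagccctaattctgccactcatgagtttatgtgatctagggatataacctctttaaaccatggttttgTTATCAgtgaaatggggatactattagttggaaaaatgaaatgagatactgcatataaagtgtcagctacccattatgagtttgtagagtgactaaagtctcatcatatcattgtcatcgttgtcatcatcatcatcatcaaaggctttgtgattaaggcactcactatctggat
FAM117A: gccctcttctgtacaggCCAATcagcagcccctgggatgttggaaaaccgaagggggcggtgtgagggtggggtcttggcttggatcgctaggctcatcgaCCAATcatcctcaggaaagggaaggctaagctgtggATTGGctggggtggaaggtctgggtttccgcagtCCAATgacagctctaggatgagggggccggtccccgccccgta

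Short motifs were searched on both strands in the 250 bases before each RefSeq start, and in the same stretch of 34788 distinct windows of all genes in the table. The letters AGATAA or TGATAA, a core read by GATA factors, occurred in 14.6% of all windows, and 2 or more times in 2.37%. The upstream HEMGN window held 1 copy, and the window of its downstream start held 2. The upstream FAM117A window held 1 copy, 32 bases before the RefSeq start, and the window of its second start held none. CCAAT occurred 4 times in the upstream FAM117A window, against 2 or more times in 9.53% of all windows, and not at all in either HEMGN window. CCNCNCCC, a core read by KLF factors, occurred 3 times in that FAM117A window, against 2 or more times in 33.3% of all windows, and in no other window of the 2 genes. CANNTG, the E-box, occurred 3 times in the window of the downstream HEMGN start, each time within an exon of GENCODE v29. It occurred 1 time in that of the second FAM117A start. Of all windows, 61.8% held it at least once and 28.3% held it 2 or more times. GC content was 37.2% in the upstream HEMGN window and 61.6% in the upstream FAM117A window, with a median of 58% over all windows. Which start the cells used was not measured. A match is a stretch of letters and not a measured binding site, and these libraries hold no binding data.

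The matches with AGATAA or TGATAA that lie within exons of GENCODE v29 are shown as short sites, with the motif in capitals. The first pair lies before the downstream HEMGN start, at chr9:97938310-97938339 and chr9:97938269-97938298, and the last before the upstream FAM117A start, at chr17:49764146-49764175, all on the minus strand.
HEMGN upstream site: acctgtgcagtgTGATAAagatagtagaat
HEMGN downstream site: tgtggtccaaccAGATAAaacttttaggcg
FAM117A site: gccccgtacagcAGATAAgcagcggcctcg

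MEN1 itself checked the labels. Its level was 6.54 ± 0.303 TPM with the MEN1 shRNA and 39.3 ± 2.10 TPM in the controls (SD, n = 3 each). The depth inferred from the tables was 5.56 to 10.8 gigabases of aligned sequence per library. Over the 14294 genes tested, 53.6% differed at an adjusted p under 0.05 in limma. With the MEN1 shRNA 22.1% were higher and 31.5% were lower. The median log2 fold change of all tested genes was -0.07. All 10 markers fixed for the erythroid lineage, among them TFRC, EPOR and ALAS2, passed the filter on low values (reaching 1 TPM in 3 libraries or more). They summed to 55447 to 61495 TPM in the controls and 95907 to 107883 TPM with the MEN1 shRNA, and 7 of them rose.

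HEMGN was at 298, 291 and 292 TPM in control replicates 1, 2 and 3. With the MEN1 shRNA it was at 1013, 1123 and 1187 TPM. The groups do not overlap, which follows from the choice of a gene with a steady rise. The controls lie far closer together than the MEN1 shRNA libraries, of which replicate 1 is the lowest. The means were 294 ± 3.94 and 1108 ± 88.4 TPM (SD, n = 3 each), 3.77 times higher, or 1.91 higher on the log2(TPM + 1) scale. By TPM, HEMGN ranked between 432 and 447 among all rows of a control library and between 107 and 124 with the MEN1 shRNA, so that it was among the more abundant messages in every library.

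FAM117A was at 161, 164 and 159 TPM in control replicates 1, 2 and 3. With the MEN1 shRNA it was at 415, 423 and 427 TPM. Here too the groups do not overlap and the libraries within each group lie close together, both of which were part of the choice. The means were 161 ± 2.61 and 421 ± 6.22 TPM (SD, n = 3 each), 2.61 times higher, or 1.38 on the log2 scale. The coefficient of variation was 1.62% in the controls and 1.48% with the MEN1 shRNA, against 1.34% and 7.98% for HEMGN. Pooled over both groups, the SD on the log2 scale was 0.0223 for FAM117A and 0.0835 for HEMGN, and its median over the 3292 genes with a control mean of 50 TPM or more was 0.0910. Of those genes, 1.12% had a smaller SD than FAM117A and 44.3% a smaller SD than HEMGN. Steadiness was part of the choice, so these places are a description of it.

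**Figure D1:**
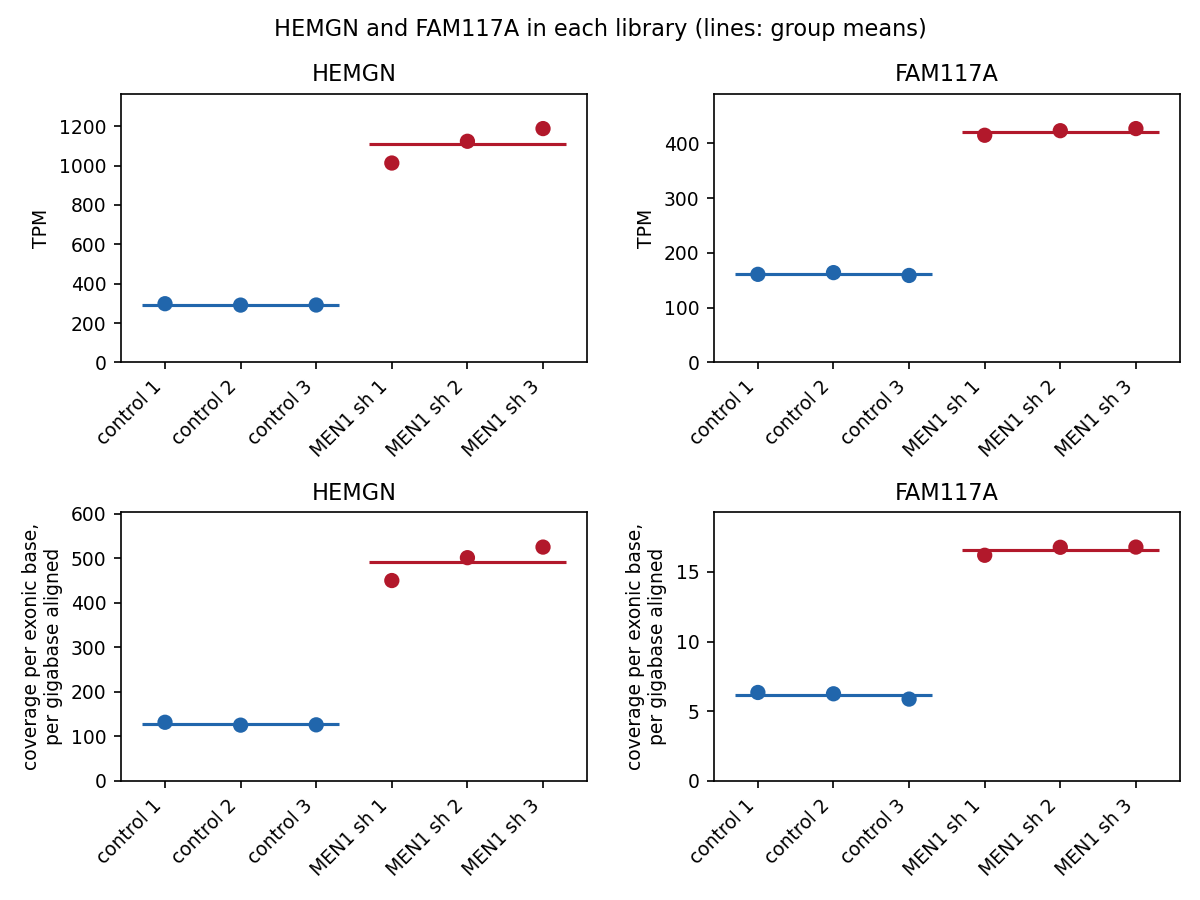
Levels of HEMGN (left) and FAM117A (right) in each library, as TPM (top) and as read coverage per exonic base per gigabase aligned (bottom); points are libraries, lines are group means, blue is control and red is MEN1 shRNA. In all 4 panels the 3 MEN1 shRNA libraries lie above the 3 controls, the direction for which both genes were picked. Coverage averages 16.6 for FAM117A and 492 for HEMGN with the MEN1 shRNA.

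The level of FAM117A depends on which deposited quantity is read. TPM is a level per base of transcript, summed over a gene's isoforms, whereas the deposited coverage is the mean number of reads over a base of the gene's exons. Coverage of HEMGN was 881 to 1354 reads per base in the controls and 2920 to 3996 with the MEN1 shRNA. Coverage of FAM117A was 41.1 to 67.6 reads per base in the controls and 93.4 to 134 with the MEN1 shRNA. These raw depths move with the size of the library, and only their ratio within a library is compared here. HEMGN was 1.78 to 1.86 times FAM117A by TPM in the control libraries, but 20.02 to 21.4 times by coverage. With the MEN1 shRNA the ratios were 2.44 to 2.78 by TPM and 27.8 to 31.3 by coverage.

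By coverage, FAM117A ranked between 4424 and 4702 in the control libraries and between 1859 and 1937 with the MEN1 shRNA. Its ranks by TPM were 920 to 962 and 282 to 289. HEMGN moved the other way between the measures, with ranks by coverage of 180 to 183 in the controls and 32 to 44 with the MEN1 shRNA. FAM117A thus stood higher among the genes of a library by TPM than by coverage. In each library 13865 to 14361 genes reached 1 TPM.

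In genes that have 1 transcript in GENCODE v29, coverage divided by FPKM was nearly constant within a library, within 0.1% of one value in 94.9% to 95.4% of them. Relative to that constant, the same quotient was 0.951 to 0.952 in HEMGN and 0.0815 to 0.0852 in FAM117A. The median over genes with a TPM of 1 or more was 0.489 to 0.496, and 7.88% to 8.37% of such genes lay at or below FAM117A. If coverage is averaged over all exonic bases of a gene, this quotient is the mean length of the isoforms counted as a share of those bases. With the 2394 exonic bases of HEMGN in GENCODE v29 it gives a mean of 2276 bases, between its 2 annotated lengths. With the 3836 exonic bases of FAM117A it gives 324 bases, shorter than the shortest annotated transcript of 480 bases. The annotation used by the authors is not given in the sources used here, so the isoforms that carry the FAM117A signal were not identified.

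The contrast between the groups was similar on either measure. Scaled per gigabase of aligned sequence, coverage of HEMGN was 128 ± 3.54 in the controls and 492 ± 38.4 with the MEN1 shRNA, a ratio of 3.85. Coverage of FAM117A on that scale was 6.16 ± 0.252 and 16.6 ± 0.335 (SD, n = 3 each), a ratio of 2.69. The ratios by TPM were 3.77 and 2.61.

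Among the 3292 genes with a control mean of 50 TPM or more, 22.5% were called higher with the MEN1 shRNA, close to the 22.1% over all genes tested. In that set 10 genes had a larger log2 fold change than HEMGN and 26 a larger one than FAM117A. Control levels were higher than that of HEMGN in 442 of them and higher than that of FAM117A in 945. Both places follow from how the 2 genes were picked.

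**Figure D2:**
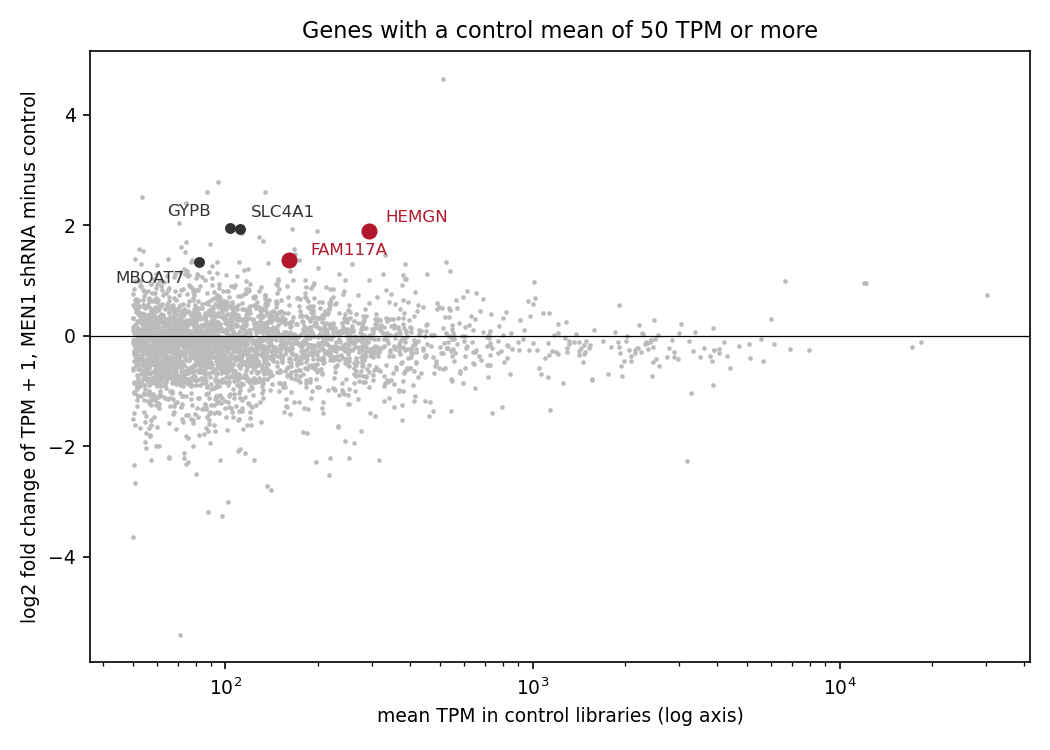
Control mean TPM (log axis) against the log2 fold change of TPM + 1 for the 3292 genes with a control mean of 50 TPM or more; each grey point is a gene, and HEMGN and FAM117A are red. HEMGN lies at 1.91 and FAM117A at 1.38, above most genes of their level, with SLC4A1, GYPB and MBOAT7 marked as genes of similar profile.

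Genes whose profile over the 6 libraries was most like that of each member were found by the root mean square distance between centred log2(TPM + 1) profiles. The search covered 3639 other named genes with a mean of 50 TPM or more in a group. Nearest to HEMGN was SLC4A1, which encodes the red cell anion exchanger band 3, at a distance of 0.0345. SLC4A1 was at 117, 110 and 109 TPM in the controls and at 402, 441 and 444 TPM with the MEN1 shRNA. Like HEMGN, it was lowest in replicate 1 of the MEN1 shRNA libraries, as were the other 4 of the 5 nearest genes. The 5 were found by their likeness over these same libraries, so a shared order is part of that choice. FAM117A was lowest in that replicate too. Next came the D-type cyclin gene CCND3 (0.0587), the glycophorin gene GYPB (0.0625), PTMS, which encodes parathymosin (0.0787), and the autophagy receptor gene OPTN (0.0817). GYPB has near-identical relatives, so how its reads were assigned is uncertain.

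Nearest to FAM117A was GCLM, which encodes a subunit of the enzyme that starts glutathione synthesis, at 0.0584. Then came the acyltransferase gene MBOAT7 (0.0629), DMTN, which encodes the membrane skeleton protein dematin (0.0715), the acetyl-CoA synthetase gene ACSS2 (0.0719), and ARPC3, a subunit of the Arp2/3 actin nucleator (0.0733). The distance between HEMGN and FAM117A themselves was 0.270. FAM117A ranked 49 among the profiles near HEMGN, and HEMGN ranked 192 among those near FAM117A. These distances describe 6 libraries in 2 groups and are dominated by the size of the difference between the groups.

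The relatives of FAM117A went the opposite way. FAM117B (ENSG00000138439, chromosome 2, 202634969 to 202769757) was at 7.65, 9.70 and 8.41 TPM in the controls and at 2.47, 0.952 and 1.48 TPM with the MEN1 shRNA. Its mean fell from 8.58 ± 1.04 to 1.63 ± 0.769 TPM (-1.90 on the log2 scale, SE 0.214, adjusted p 0.000266 in limma). FAM117B was at 19.0% of its control level by TPM and at 19.3% by coverage.

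GLCCI1 (ENSG00000106415, chromosome 7, 7968796 to 8094272) was at 11.5, 13.0 and 13.1 TPM in the controls and at 5.03, 5.30 and 4.80 TPM with the MEN1 shRNA. It fell from 12.5 ± 0.877 to 5.04 ± 0.252 TPM (-1.16 on the log2 scale, SE 0.0976, adjusted p 8.1e-05). It was at 40.2% of its control level by TPM and at 34.9% by coverage. On the log2 scale with 1 added, coverage gave -0.23, because coverage of GLCCI1 was only 0.298 per gigabase in the controls. Its quotient of coverage to FPKM was low as well, at 0.0429 to 0.0535 of that of genes with 1 transcript, while that of FAM117B was 0.951 to 0.964. Dexamethasone was in the medium of both groups.

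In these libraries FAM117A was therefore the most abundant of the 3 relatives by TPM in both groups, and the only one higher with the MEN1 shRNA, the direction for which it had been picked. By coverage it was likewise above FAM117B, at 6.16 against 3.77 per gigabase in the controls and 16.6 against 0.729 with the MEN1 shRNA.

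The genes listed with the C/EBP factors, after which FAM117A was once named, were mixed. Of 7 genes, 2 rose, 3 fell and 2 did not pass the threshold, or 71.4% called against 53.6% over all genes tested. CEBPA, counted among those that fell, was at 2.73 ± 0.197 TPM in the controls and 0.662 ± 0.272 TPM with the MEN1 shRNA. It reached 1 TPM only in the controls and so passed the filter through them alone. CEBPG rose from 21.7 ± 1.01 to 32.4 ± 4.52 TPM (adjusted p 0.0037). CEBPB had a log2 fold change of 0.42 and an adjusted p of 0.0502, which ran over the 15 alternative settings from 0.00399 (without MEN1 shRNA replicate 1) to 0.15 (without MEN1 shRNA replicate 3) and was under the threshold in 7. The stress-induced DDIT3 was the other gene that rose, by 1.21 on the log2 scale, and CEBPE and CEBPZ the others that fell. CEBPZ is in this list by its name only.

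**Figure D3:**
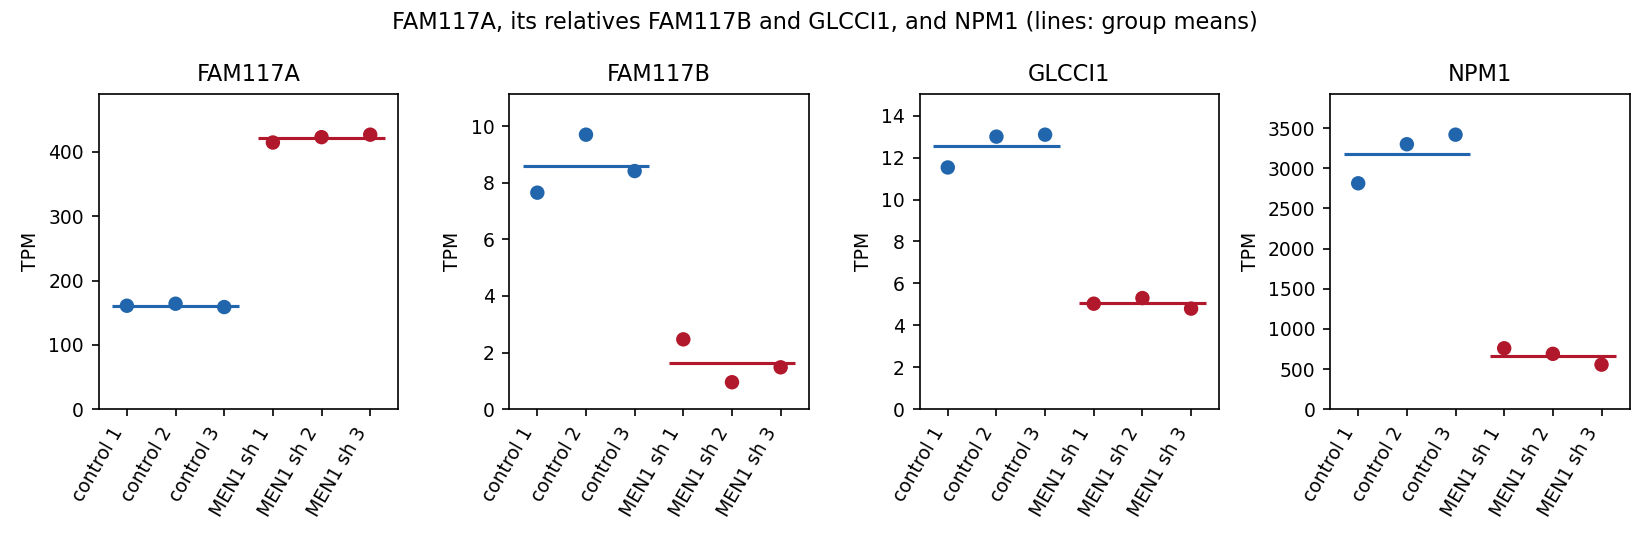
TPM of FAM117A, of its relatives FAM117B and GLCCI1, and of NPM1 in each library; points are libraries, lines are group means, and each panel has its own axis from 0. FAM117A is higher in the 3 MEN1 shRNA libraries, at 415 to 427 TPM, and the other 3 genes are lower there.

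The genes tied to hemogen formed no single pattern. Of the 12 genes of the list, which holds the named partners, HOXB4 and the cofactors of GATA1, 3 rose, 5 fell and 4 did not pass the threshold, or 66.7% called against 53.6% over all genes tested. The median log2 fold change was -0.15, against -0.07 over all genes. NPM1 (ENSG00000181163, chromosome 5, 171387116 to 171411810) changed most. It was at 2812, 3298 and 3418 TPM in the controls and at 759, 689 and 555 TPM with the MEN1 shRNA. The groups lie far apart, and NPM1 fell from 3176 ± 321 to 667 ± 104 TPM (-2.26 on the log2 scale, SE 0.125, adjusted p 2.5e-05). It was at 21.0% of its control level by TPM and at 24.1% by coverage. NPM1 has many processed pseudogenes, so the share of its reads assigned to this row is uncertain. Its quotient of coverage to FPKM was 0.162 to 0.215 of that of genes with 1 transcript. In the controls NPM1 was above HEMGN in every library, and with the MEN1 shRNA HEMGN was above NPM1 in every library. By mean coverage per gigabase the order turned as well, with NPM1 at 244 and HEMGN at 128 in the controls and NPM1 at 58.9 and HEMGN at 492 with the MEN1 shRNA.

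GATA1, the master regulator of red cell genes, was at 289 ± 2.26 TPM with the MEN1 shRNA and 277 ± 6.22 TPM in the controls, with a log2 fold change of 0.06 and an adjusted p of 0.327. Under median-of-ratios scaling it was 0.15, with an adjusted p of 0.0428. KLF1, an erythroid zinc finger activator, had a log2 fold change of -0.05 (adjusted p 0.508), and its sign turned with the scaling. Among the cofactors of GATA1, the bHLH factor gene TAL1 rose from 93.7 ± 1.38 to 158 ± 12.6 TPM (0.74 on the log2 scale, adjusted p 0.000115), and ZFPM1, which encodes FOG1, from 16.8 ± 1.54 to 26.8 ± 1.56 TPM (0.65, adjusted p 0.000699). The adaptor gene LDB1 fell from 285 ± 11.3 to 159 ± 17.3 TPM (-0.84, adjusted p 0.000145).

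Of the 2 related acetyltransferase genes, CREBBP rose by 0.44 (adjusted p 0.000933) and EP300 fell by 0.24 (adjusted p 0.0212) on the log2 scale. By coverage per gigabase, with 1 added before the log, the values were 0.22 for CREBBP (adjusted p 0.0126) and -0.22 for EP300 (adjusted p 0.0106). The added 1 weighs more at low coverage, so these sizes are not set against those by TPM. The EP300 call was lost under 5 of the alternative settings, among them without MEN1 shRNA replicate 2 (adjusted p 0.0684) and without control replicate 2 (adjusted p 0.0745). GATA2, which precedes GATA1 in progenitors, fell from 157 ± 9.84 to 72.1 ± 17.8 TPM (-1.14, adjusted p 0.00101), and RUNX1 from 34.8 ± 3.50 to 11.6 ± 1.42 TPM (-1.50, adjusted p 5.2e-05). By coverage per gigabase on the same scale the RUNX1 value was -0.42 (adjusted p 0.000502). Its size is likewise not set against that by TPM.

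HOXB4 was at 8.34, 9.70 and 2.00 TPM in the controls and at 8.82, 10.4 and 15.4 TPM with the MEN1 shRNA. The groups overlap, control replicate 3 stands below the others, and the log2 fold change of 0.87 had an adjusted p of 0.151. It was 0.29 without control replicate 3 (adjusted p 0.317). LMO2, the LIM protein of the GATA1 complex, also set control replicate 3 apart, at 85.3 TPM against 297 and 280 TPM. Its log2 fold change was -0.25 (adjusted p 0.65) over all 6 libraries and -0.84 (adjusted p 0.000733) without that library.

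HEMGN and FAM117A were then set beside 68 other genes of maturing red cell precursors. This list holds genes of the red cell membrane, heme synthesis, iron uptake, mitophagy and ubiquitin ligases, without the globins. Of these, 67 passed the filter on low values, of which 50 rose, 8 fell and 9 did not pass the threshold. That is 74.6% called higher, against 22.1% over all genes tested, with a median log2 fold change of 0.72. The list was chosen with earlier results of these data known, so this share is a description. The 6 with the lowest adjusted p were SLC4A1 (log2 fold change 1.93), the TRIM family gene TRIM10 (2.68), GYPB (1.95), UROD of heme synthesis (1.12), DMTN (1.37) and EPB41, which encodes protein 4.1 of the membrane skeleton (1.19). Their adjusted p-values lay between 8.4e-06 and 2.4e-05 in limma. TRIM10 was at 4.82 to 5.39 TPM in the controls and at 33.4 to 41.1 TPM with the MEN1 shRNA. HEMGN lay below 5 of the 67 genes in log2 fold change (RHCE, TRIM10, RHD, GYPB and SLC4A1), and FAM117A was lower than HEMGN. Those not named earlier are given because of this order. The places of HEMGN and FAM117A in it follow from how they were picked. RHCE and RHD are near-identical copies, and their separate levels are uncertain. TAL1 is both in this list and in the one tied to hemogen.

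Of the 8 that fell, FBXO7, a substrate receptor of a ubiquitin ligase, fell from 412 ± 27.3 to 181 ± 21.7 TPM (-1.18 on the log2 scale, adjusted p 6.6e-05). TRIM58, an erythroid ubiquitin ligase, fell by 0.99 on that scale (adjusted p 0.000149), and PIM1, a kinase induced by cytokines, by 0.98 (adjusted p 0.000287). The other 5 were ICAM4, GLRX5, TFR2, PRDX2 and XPO7, named after their values were seen.

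**Figure D4:**
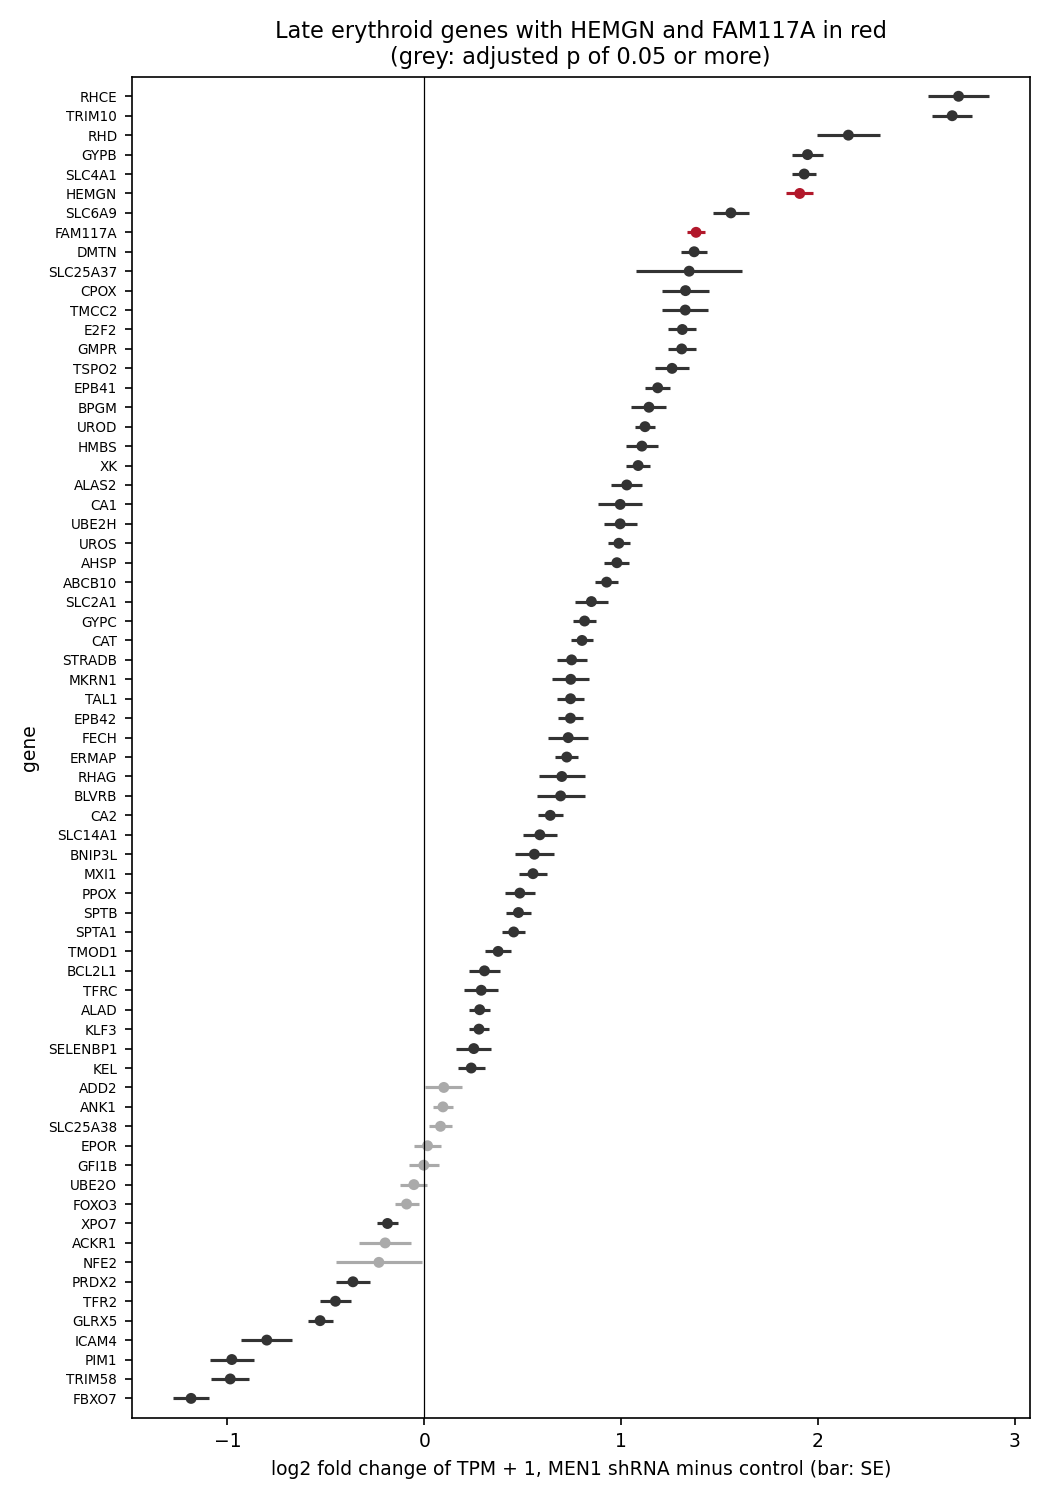
Log2 fold change of TPM + 1 (MEN1 shRNA minus control, bars are SE from limma) for late erythroid genes that passed the filter, 1 left out, ordered by size; HEMGN and FAM117A are red, and genes with an adjusted p of 0.05 or more are grey. HEMGN at 1.91 and FAM117A at 1.38 stand near the top, having been picked for their rise. Most genes lie on the positive side, and FBXO7 is lowest at -1.18.

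Most of the progenitor genes tested moved in the direction opposite to that of the members. Of 18 genes, 12 passed the filter, of which 10 fell, 0 rose and 2 did not pass the threshold, with a median log2 fold change of -1.14. That is 83.3% called lower, against 31.5% over all genes tested. This list too was chosen with earlier results of these data known. Of the 10, SOX4 reached 1 TPM only in the controls. The 3 with the lowest adjusted p were the cytokine receptor genes CSF2RB (-1.72) and KIT (-1.15) and the transcription factor gene MYB (-1.23). GATA2, RUNX1 and LMO2 are also in the list tied to hemogen. In RNA from a bulk culture, a change in the share of cells at each stage and a change in RNA per cell cannot be told apart.

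Most markers of other blood cell types were near 0. The 9 megakaryocyte markers summed to 33.6 to 38.5 TPM in the controls and 34.7 to 40.1 TPM with the MEN1 shRNA, with PF4 and PPBP listed at 0 in every library. Within that list TUBB1, a platelet tubulin, rose from 1.86 ± 0.344 to 18.3 ± 2.08 TPM, and the integrin gene ITGA2B fell from 33.8 ± 2.44 to 18.6 ± 2.35 TPM. The 10 myeloid markers summed to 3.86 to 5.62 TPM in the controls and 0.857 to 2.35 TPM with the MEN1 shRNA, with S100A8 listed at 0 throughout. LYZ and AZU1, the 2 that passed the filter, reached 1 TPM only in the controls. The 9 lymphoid markers summed to 1.16 to 1.29 TPM in the controls and to 3.97 to 5.83 TPM with the MEN1 shRNA, where CD3D was at 4.40 TPM, having reached 1 TPM in no control, with MS4A1 and CD79B listed at 0. The 7 mast cell and basophil markers summed to 1311 to 1595 TPM in the controls and 848 to 1003 TPM with the MEN1 shRNA, carried by KIT and the near-identical tryptase genes TPSAB1 and TPSB2, with CLC listed at 0. Their part in the results for HEMGN and FAM117A was not tested.

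The genes beside each member had smaller differences. The members were picked for their rise, so this order follows largely from that choice and is given as a description. Within 250 kb of HEMGN, 12 other rows carry a symbol and 6 of these passed the filter, of which 2 rose and 3 fell (median log2 fold change -0.35). The nearest upstream is ANP32B, a histone chaperone gene whose start lies 38.5 kb away. ANP32B rose from 978 ± 56.3 to 1263 ± 98.7 TPM (0.37 on the log2 scale, adjusted p 0.00447). The nearest downstream is TRMO, a tRNA methyltransferase gene starting 22.4 kb away, at 21.6 ± 2.71 and 17.5 ± 1.75 TPM (-0.28, adjusted p 0.075). TRIM14 (-0.92), the sialic acid synthase gene NANS (-0.41) and the DNA repair gene XPA (-0.45) fell, and the coronin gene CORO2A (0.71) rose. The XPA call was lost under 10 of the alternative settings, with an adjusted p of up to 0.121. It held when control replicate 3 was left out (0.0101) but not when any of the other 5 libraries was (0.0796 to 0.12). Without control replicate 1, TRMO was past the threshold (-0.38, adjusted p 0.0274). The thyroid transcription factor gene FOXE1, also within 250 kb, did not pass the filter.

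Within 250 kb of FAM117A, 13 other rows carry a symbol and 3 of these passed the filter, of which 1 rose and 0 fell. SLC35B1, a nucleotide sugar transporter gene just downstream, rose from 41.2 ± 2.49 to 52.4 ± 1.91 TPM (0.34, adjusted p 0.00432). KAT7, an acetyltransferase gene that runs the other way and overlaps the far upstream FAM117A start by 557 bases, was at 33.0 ± 7.32 TPM in the controls and 35.6 ± 5.28 TPM with the MEN1 shRNA (0.12, adjusted p 0.592). SPOP, a ubiquitin ligase adaptor gene, was at 44.7 ± 7.29 and 36.6 ± 5.99 TPM (-0.28, adjusted p 0.166). With 1 library left out it ran from -0.42 (adjusted p 0.046, without control replicate 1) to -0.14 (adjusted p 0.447, without MEN1 shRNA replicate 2). An unnamed row on the opposite strand, ENSG00000250751, overlaps the 3′ part of FAM117A over 9729 bases, and was noticed after its values were seen. It was at 0.733 ± 0.102 TPM in the controls and 2.21 ± 0.867 TPM with the MEN1 shRNA, and reached 1 TPM only with the MEN1 shRNA. The libraries were strand-specific, but whether the counting used strand is not given, so reads of FAM117A and of this row may not be fully separated. Over both regions 3 neighbours rose and 3 fell, or 66.7% of 9 called against 53.6% over all genes tested.

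**Figure D5:**
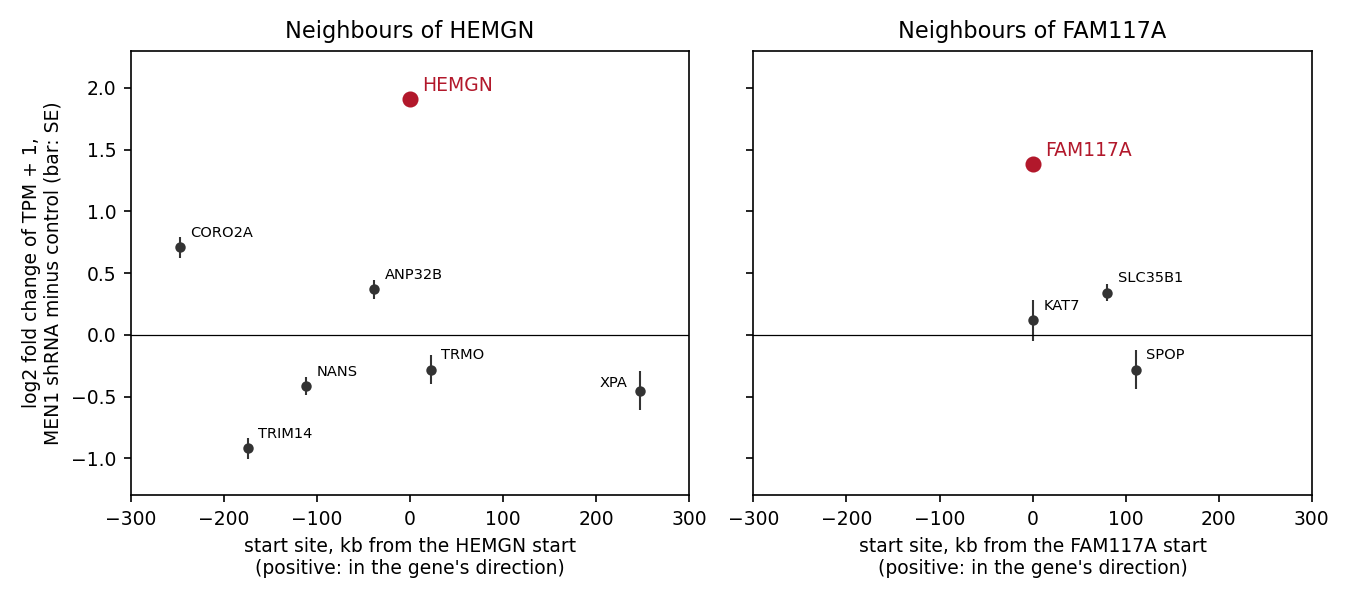
Log2 fold change of TPM + 1 (bars are SE from limma) of the tested genes with a symbol within 250 kb of HEMGN (left) and FAM117A (right), placed by the distance of their start site in kb from that of the member. HEMGN at 1.91 and FAM117A at 1.38, picked for their rise, lie above all of these neighbours, which run from -0.92 to 0.71.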

How the data were processed

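Each of the 6 libraries has 1 table of 62754 gene rows. The deposited TPM, FPKM and coverage values (mean read depth per exonic base) are named so per the file headers. Per the submitters' processing notes, FastQC, Trimmomatic, STAR 2.7.1a, Picard 2.20.4 and StringTie 2.0.4 were used on hg38; the annotation is not given in the sources used here. Deposited TPM sums to the same total in each library, so a rise of abundant messages lowers all others. In control replicate 2, values just below 0 in 2 rows were set to 0.

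Genes reaching 1 TPM in 3 libraries or more were fitted as log2(TPM + 1) with limma 3.58.1 in R 4.3.3 (eBayes with a mean-variance trend, 2-sided, Benjamini-Hochberg adjustment over all 14294 genes, threshold 0.05). A fold change on this scale understates the change of low genes. The fit was also run on simulated data with independent normal noise and few changed genes, which checks the code and not the calls made here. Coverage per gigabase is coverage divided by the coverage-to-FPKM quotient of single-transcript genes in the library. Read counts were not used here, so no count model was fitted.

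The members, lists and rules were chosen with earlier results of these data known. Named genes were the 2 members, the relatives, the hemogen list, the leading calls of each other list, neighbours within 250 kb and the 5 nearest profiles. Figures used Python 3.11.15, pandas 2.3.3, NumPy 2.4.6 and matplotlib 3.10.9. Same-numbered replicates were not treated as pairs. Values of 1 gene of the late erythroid and erythroid marker lists are not reported here singly; it is in the counts and sums of those lists.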

Additional observations from a re-analysis of the deposited data

How the results depend on the processing

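The log2 fold change of HEMGN kept its sign under all 15 alternatives and ran from 1.86 to 1.996; it moved by more than the spread between replicates only under median-of-ratios scaling (1.996). That of FAM117A also kept its sign. Its narrow spread was passed with FPKM (1.407), median-of-ratios scaling (1.469), TPM rescaled without globin and mitochondrial genes (1.45) and coverage per gigabase (1.296). Coverage was a setting chosen after the data were seen. It had 1 added before the log, at FAM117A means of 6.16 in the controls and 16.6 with the MEN1 shRNA. Without that 1, the FAM117A ratio was 2.69 by coverage and 2.61 by TPM. With 1 library left out FAM117A ran from 1.37 to 1.393. Counts of genes past the threshold stayed within 1.5 times: 6345 to 7674 over all genes, 54 to 58 late erythroid, 7 to 9 tied to hemogen, 8 to 12 progenitor and 5 to 7 neighbour genes.

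The sign turned for 3 genes whose calls did not pass the threshold. KLF1 gave 0.0363 under median-of-ratios scaling and 0.0168 without globin and mitochondrial genes, and -0.0897 to 0.000213 with 1 library left out. LMO2 ran from -0.836 to 0.0568 and KAT7 from -0.0249 to 0.279 with 1 library left out, and KAT7 gave -0.113 by coverage; the cause was not tested.

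In the fit with a replicate block, 7012 genes were called; EP300 (adjusted p 0.0542) was lost and CEBPB (0.0449) gained, and no other single gene compared across settings changed its call. Deviations of same-numbered libraries from their group means were correlated at 0.017, -0.027 and -0.012 over the genes tested. The labels do not say whether same-numbered libraries were handled together, and these values cannot show it. Without counts, the sampling error of low genes such as FAM117B is not known.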
